A study of Mus musculus with 4 samples.

Results

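The genes described here encode receptors that decide whether a lymphocyte leaves a lymphoid organ and where in it the cell settles. They are the sphingosine-1-phosphate (S1P) receptor genes S1pr1, S1pr2 and S1pr4, the oxysterol receptor gene Gpr183, the selectin ligand gene Selplg and Cd69, whose product takes an S1P receptor off the cell surface. They were picked by gene symbol and not by a cut on their values, but earlier results of these data were known. Each of the 6 genes had its own row among the 23996 genes of the authors' deposited table, and all 6 were among the 11569 genes that the authors tested. Follicular helper T (TFH) cells, which support germinal centre B cells, were isolated by sorting for CD4+CD44+CXCR5+PD-1+ cells of mouse spleen, 7 days after immunization with OVA in alum. The sorted cells came from Etv5f/f;Cd4-Cre mice (Etv5 cKO, 2 libraries) and from Etv5f/f mice (WT, 2 libraries). Mice of both genotypes carried the floxed allele of Etv5, a transcription factor gene of the ETS family, and both were immunized. Cd4-Cre acts from the thymus onward in T cells, so deletion was not limited to TFH cells, and because WT mice carried no Cre, loss of Etv5 and presence of Cre cannot be told apart.

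S1P is plentiful in blood and lymph and scarce inside lymphoid tissue, and T cells follow that difference outward through S1pr1. S1pr2 acts against movement toward S1P and is known for holding B cells and TFH cells inside the germinal centre. Gpr183 senses oxysterols and draws activated lymphocytes to the outer edges of the follicle, away from its centre. Selplg encodes PSGL-1, which binds selectins on inflamed vessel walls.

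The deposited table gives 1 FPKM value (a fragment count scaled by transcript length and by sequencing yield) for a gene in each genotype, covering both libraries. Values per library, and so the spread between libraries, cannot be shown. FPKM is scaled to length, so levels of different genes can be set side by side. The error of a difference was taken from the p of the authors' Cuffdiff test. From that p a 95% interval of the log2 fold change was derived as if the error were normal. The labels do not say whether the 2 libraries of a genotype came from separate mice, so these p-values may measure technical spread only, and the depth of the libraries is unknown. Etv5 itself had 2.12 FPKM in Etv5 cKO and 5.24 FPKM in WT cells in the authors' deposited table (difference of -1.31 on the log2 scale, Cuffdiff adjusted p = 0.0181). The markers of the sort were present at 470 FPKM in Etv5 cKO and 460 FPKM in WT cells for Cd4, at 158 FPKM in Etv5 cKO and 183 FPKM in WT cells for Cxcr5, and at 154 FPKM in Etv5 cKO and 173 FPKM in WT cells for Pdcd1, which encodes PD-1. Of the 40 genes called over the whole table, 4 were Y-linked and lower in Etv5 cKO (summed 26.1 FPKM in Etv5 cKO and 63.4 FPKM in WT), and the part of the animals' sex in the values below was not tested.

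Upstream sequences are shown because the deleted factor belongs to the ETS family, whose members bind a GGAA core. RefSeq tables of GRCm38.p6, the assembly behind mm10, held S1pr2, S1pr4 and Gpr183, 3 of the 6 genes. Each line gives the 250 bases before the annotated transcript start, 5′ to 3′ on the minus strand that carries the gene, with every GGAA or its reverse complement TTCC in capitals.
S1pr2, chr9:20976794-20977043: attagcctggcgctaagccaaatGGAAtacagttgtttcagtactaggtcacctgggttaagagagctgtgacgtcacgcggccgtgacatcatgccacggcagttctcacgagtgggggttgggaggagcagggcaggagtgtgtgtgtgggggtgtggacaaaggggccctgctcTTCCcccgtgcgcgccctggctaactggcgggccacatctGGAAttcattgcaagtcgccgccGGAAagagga
S1pr4, chr10:81500138-81500387: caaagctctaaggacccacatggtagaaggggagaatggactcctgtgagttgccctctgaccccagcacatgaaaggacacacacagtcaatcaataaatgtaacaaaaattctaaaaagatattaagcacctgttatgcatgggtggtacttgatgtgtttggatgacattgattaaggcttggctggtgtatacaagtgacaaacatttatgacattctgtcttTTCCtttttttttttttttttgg
Gpr183, chr14:121965194-121965443: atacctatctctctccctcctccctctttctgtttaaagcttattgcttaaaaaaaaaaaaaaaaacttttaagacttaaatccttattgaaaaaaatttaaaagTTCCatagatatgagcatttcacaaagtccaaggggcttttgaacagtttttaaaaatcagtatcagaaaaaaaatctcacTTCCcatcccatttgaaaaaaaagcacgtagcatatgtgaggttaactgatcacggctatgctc
The core occurred 4 times in the S1pr2 window, 1 time for S1pr4 and 2 times for Gpr183. It is a common word: 93.4% of 32851 upstream windows of this length hold it on either strand. The longer CCGGAA, which contains the core, was present on either strand in 12.0% of the windows. Of the 3 windows shown it occurred in that of S1pr2 only, from base -12 to -7 before the start. These are matches of letters, and no binding was measured.

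All 6 receptor genes were expressed in both genotypes, and none was called different between them. Among the 6, 0 had a Cuffdiff adjusted p below 0.05 (all 0.999) in the authors' deposited table, against 0.346% of all genes tested. At an unadjusted p below 0.05 the count was also 0 of 6, against 2.40% of all genes tested. Of the 6, 5 had higher values in Etv5 cKO cells and 1, S1pr2, had a lower value. The median log2 fold change of the 6 was 0.20, beside -0.003 for all tested genes, of which 48.9% were higher. Among tested genes that averaged 20 FPKM or more, 53.3% were higher and the median was 0.00758. The absolute log2 fold change was above 0.2 for 3 of the 6 (Selplg, Cd69 and S1pr4). That holds for 21.1% of all genes tested and for 7.49% of the 4581 tested genes that averaged 20 FPKM or more, the range in which all 6 lie. The cuts of 0.2 and 20 FPKM were not planned and fall close to the members' own values. Gpr183 stood at 0.18 and S1pr4 at 0.22, and S1pr2 had 21.9 FPKM in Etv5 cKO and 24.1 FPKM in WT. The count of 3 therefore depends on the cut. Members chosen by role with earlier results known do not form a random sample, so these shares are given as a description.

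**Figure D1:**
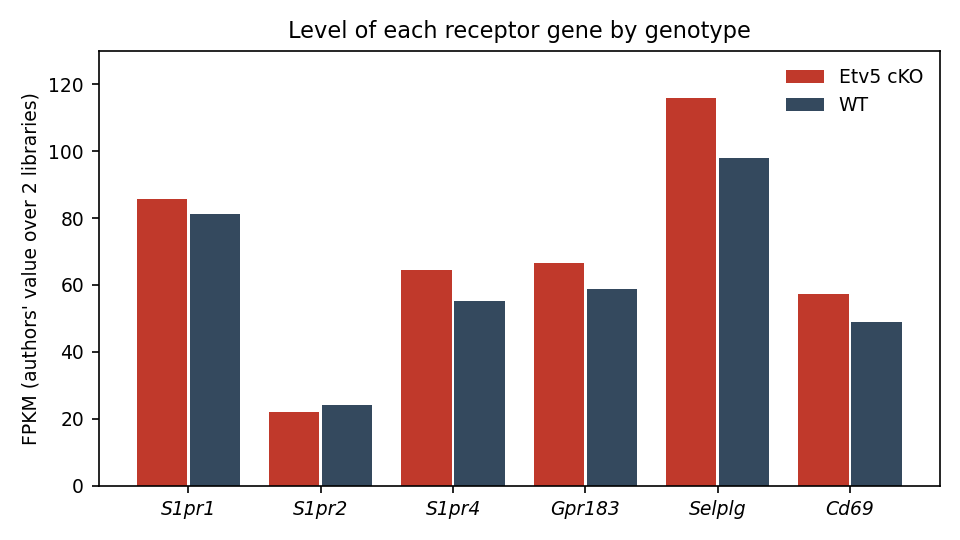
FPKM of each receptor gene (vertical axis) in Etv5 cKO and WT TFH cells, each bar being the authors' single value over 2 libraries, with no error bar because no value per library was available. Selplg stands highest (116 FPKM in Etv5 cKO, 97.8 in WT) and S1pr2 lowest (21.9 FPKM in Etv5 cKO, 24.1 in WT).

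The order of the levels was the same in both genotypes. From high to low it ran Selplg, S1pr1, Gpr183, S1pr4, Cd69 and S1pr2. The highest stood 5.31 times above the lowest in Etv5 cKO cells and 4.06 times in WT cells. With no spread between libraries, neighbours such as Gpr183 and S1pr4 cannot be ranked with confidence.

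S1pr1, the receptor for exit along the S1P gradient, was the better expressed of the S1P receptors. It lies on mm10 chromosome 3 from 115710433 to 115715055, minus strand, protein coding, as are the other 5. S1pr1 had 85.6 FPKM in Etv5 cKO cells and 81.1 FPKM in WT cells, at percentile 91.8 of the tested genes in Etv5 cKO and 91.3 in WT. The log2 fold change in the authors' deposited table was 0.08 (Cuffdiff p = 0.663), with an implied interval of -0.27 to 0.43. Of the 6 genes this was the smallest difference. On the ratio scale the interval implied by p runs from 0.829 to 1.34 times WT. The authors' test score for S1pr1, 0.305, would give a wider one.

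S1pr2, the receptor that restrains movement and confines cells to the germinal centre, was the gene of lowest level. It lies on mm10 chromosome 9 from 20965952 to 20976793. S1pr2 had 21.9 FPKM in Etv5 cKO cells and 24.1 FPKM in WT cells, at percentile 63.2 of the tested genes in Etv5 cKO and 66.1 in WT. The log2 fold change was -0.14 in the authors' deposited table (Cuffdiff p = 0.467), with an implied interval of -0.51 to 0.24. Per length, S1pr1 transcripts outnumbered those of S1pr2 by 3.91 to 1 in Etv5 cKO cells and by 3.37 to 1 in WT cells. The difference between the log2 fold changes of S1pr1 and S1pr2 was not tested. In bulk RNA, fewer S1pr2-expressing cells in the sort and less S1pr2 RNA per cell cannot be told apart.

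S1pr4, an S1P receptor found mainly on blood cells, stood between them. It lies on mm10 chromosome 10 from 81497745 to 81500137. S1pr4 had 64.4 FPKM in Etv5 cKO cells and 55.3 FPKM in WT cells. The log2 fold change in the authors' deposited table was 0.22 (Cuffdiff p = 0.216), with an implied interval of -0.13 to 0.57. S1pr3 (0.303 FPKM in Etv5 cKO, 0.234 in WT) and S1pr5 (0.235 FPKM in Etv5 cKO, 0.105 in WT), the remaining S1P receptor genes, were near 0 and were not tested by the authors.

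Gpr183, the oxysterol receptor, had 66.6 FPKM in Etv5 cKO cells and 58.9 FPKM in WT cells. The log2 fold change was 0.18 in the authors' deposited table (Cuffdiff p = 0.473), and its implied interval, -0.30 to 0.66, was the widest of the 6. The table gives Gpr183 the whole span on mm10 chromosome 14 from 121878606 to 122021035, and gives the same span to Gpr18 and Ubac2. In GENCODE M21 on the same build, Gpr183 runs from 121952551 to 121965195 on the minus strand, inside Ubac2 on the plus strand. Ubac2 had 49.4 FPKM in Etv5 cKO and 58.1 FPKM in WT cells, a log2 fold change of -0.23 (Cuffdiff p = 0.418 in the authors' deposited table). The library kit marks strand, but the strand setting of the counting is not given in the sources used here, so reads of Gpr183 and Ubac2 may not be fully separated.

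Selplg, which encodes the selectin ligand PSGL-1, had the highest level and the largest difference of the 6. It lies on mm10 chromosome 5 from 113817798 to 113830501. Selplg had 116 FPKM in Etv5 cKO cells and 97.8 FPKM in WT cells, at percentile 94.3 of the tested genes in Etv5 cKO and 93.0 in WT. The log2 fold change of 0.25 was not called in the authors' deposited table (Cuffdiff p = 0.168, adjusted p = 0.999), and its implied interval ran from -0.10 to 0.60. On the ratio scale that interval extends from 0.930 to 1.51 times WT.

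Cd69, an early activation antigen that binds S1pr1 protein and lowers it at the surface, had 57.2 FPKM in Etv5 cKO cells and 48.8 FPKM in WT cells. It lies on mm10 chromosome 6 from 129267325 to 129275369. The log2 fold change in the authors' deposited table was 0.23 (Cuffdiff p = 0.221), with an implied interval of -0.14 to 0.60. Cd69 acts on the S1pr1 protein, which RNA levels do not show.

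**Figure D2:**
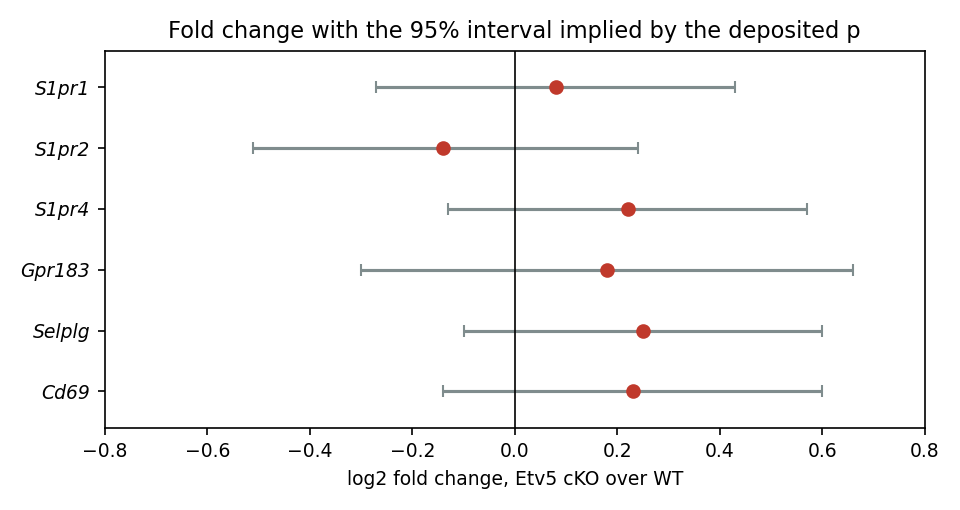
Log2 fold change of each receptor gene, Etv5 cKO over WT (horizontal axis), as points, with bars for the 95% interval implied by the authors' p under normal error. All 6 bars cross 0, and S1pr2 (-0.14) is the only point left of 0. Bars drawn from the authors' test score would be wider.

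**Figure D3:**
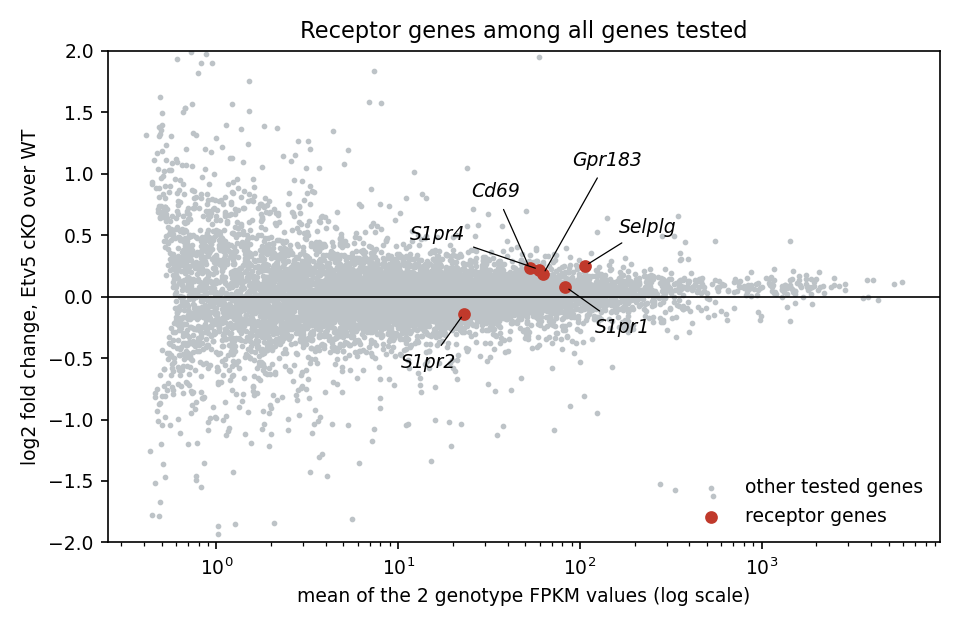
Log2 fold change, Etv5 cKO over WT, against the mean of both genotype FPKM values on a log axis, with 1 point per tested gene above 0 FPKM in both genotypes (grey) and the 6 receptor genes in red; 19 of the 11564 such genes lie beyond the vertical axis. The receptor genes lie within the band of other genes. S1pr2 lies at a lower level (percentile 63.2 of the tested genes in Etv5 cKO, 66.1 in WT) than the others, which lie at high levels.

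No gene of S1P supply and breakdown was called either. Of 17 tested genes of that list 10 were higher, 7 lower and 0 called in the authors' deposited table, and their median log2 fold change was 0.02. Sphk2, a kinase that makes S1P, had 17.1 FPKM in Etv5 cKO and 17.4 FPKM in WT cells, and Sphk1, the other such kinase, had 0.921 FPKM in Etv5 cKO and 0.734 FPKM in WT cells. Sgpl1, the lyase that destroys S1P, had 27.0 FPKM in Etv5 cKO and 30.8 FPKM in WT cells, and the phosphatase gene Sgpp1 had 28.8 FPKM in Etv5 cKO and 29.1 FPKM in WT cells. The ceramide synthase genes Cers2 (86.6 FPKM in Etv5 cKO, 86.4 in WT) and Cers5 (48.7 FPKM in Etv5 cKO, 49.6 in WT) had the highest levels of the list. Mfsd2b, which exports S1P from red cells and platelets, had 2.17 FPKM in Etv5 cKO and 1.41 FPKM in WT cells (log2 fold change 0.63 and Cuffdiff p = 0.0711 in the authors' deposited table). Markers of red cells and platelets were higher in the same libraries (7 of 7 tested, summed 570 FPKM in Etv5 cKO and 125 FPKM in WT), and which cells carried Mfsd2b was not tested.

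The signalling relay below the receptors went both ways, with 13 of 25 tested genes higher, 12 lower and 0 called. The median of the list was 0.02 on the log2 scale. Gnai2, the inhibitory G protein subunit through which S1pr1 and Gpr183 act, had 357 FPKM in Etv5 cKO and 346 FPKM in WT cells. Gna13, the subunit through which S1pr2 acts, had 91.6 FPKM in Etv5 cKO and 104 FPKM in WT cells (log2 fold change -0.18, Cuffdiff p = 0.332 in the authors' deposited table). Arhgef1, a GTPase activator downstream of Gna13, had 348 FPKM in Etv5 cKO and 356 FPKM in WT cells, and Rac2, a GTPase of cell movement, had 584 FPKM in Etv5 cKO and 556 FPKM in WT cells. Adrbk1, which encodes the kinase GRK2 that desensitizes S1pr1, had 189 FPKM in Etv5 cKO and 193 FPKM in WT cells.

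Enzymes that make the Gpr183 ligand were near 0 in the sorted cells. Hsd3b7, which breaks it down, was the 1 tested gene of 5, at 2.92 FPKM in Etv5 cKO and 3.07 FPKM in WT cells. Ch25h, the first enzyme of its synthesis, had 0.0737 FPKM in Etv5 cKO and 0.183 FPKM in WT cells, and Cyp7b1, the next enzyme, is listed at 0 in both.

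Selplg binds selectins only after its sugars are built, and that machinery showed small differences. Of the 17 tested genes in the list of selectins and ligand synthesis 13 were higher, 4 lower and 0 called in Etv5 cKO cells in the authors' deposited table, and their median log2 fold change was 0.07. Fut7, the fucosyltransferase needed for selectin binding, had 3.67 FPKM in Etv5 cKO and 3.12 FPKM in WT cells. Tpst2, which adds sulfate to the tyrosines of PSGL-1, had 47.5 FPKM in Etv5 cKO and 42.2 FPKM in WT cells. The highest mean levels of both genotypes in the list were those of Spn, which encodes the sialomucin CD43 (199 FPKM in Etv5 cKO, 203 in WT), Cd44 (97.7 FPKM in Etv5 cKO, 95.6 in WT) and the sialyltransferase gene St3gal1 (75.9 FPKM in Etv5 cKO, 75.0 in WT). The 4 linkers of PSGL-1 to the actin cortex included 0 called genes (median 0.05 on the log2 scale), with Msn at 316 FPKM in Etv5 cKO and 301 FPKM in WT cells.

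Transcription factors that control S1pr1 were not called. Klf2, the transcription factor that drives S1pr1, had 83.7 FPKM in Etv5 cKO and 77.8 FPKM in WT cells (log2 fold change 0.11, Cuffdiff p = 0.559 in the authors' deposited table). Foxo1, which acts upstream of Klf2, had 60.4 FPKM in Etv5 cKO and 61.0 FPKM in WT cells. The 16 tested egress and recirculation genes had 7 higher, 9 lower and a median of -0.01, and the 1 called was Il7r (62.8 FPKM in Etv5 cKO, 38.8 in WT, Cuffdiff adjusted p = 0.0351 in the authors' deposited table, and 0.0727 over every listed gene).

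Among 12 tested retention and residency genes 9 were higher and 3 lower (median 0.09). The 1 called was Rgs16, a brake on G protein signalling, which fell to 24.5 FPKM in Etv5 cKO, against 50.8 FPKM in WT cells (Cuffdiff adjusted p = 0.0181 in the authors' deposited table). Rgs1, another such brake, had 96.4 FPKM in Etv5 cKO and 80.7 FPKM in WT cells (Cuffdiff p = 0.178 in the authors' deposited table). P2rx7, an ATP-gated channel that limits TFH survival, had 113 FPKM in Etv5 cKO and 112 FPKM in WT cells.

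Other receptors that place T cells relative to the follicle went both ways, with 6 of 13 higher, 7 lower, 0 called and a median of -0.01. Cxcr5, which draws TFH cells into the follicle, had a log2 fold change of -0.21, Etv5 cKO over WT (Cuffdiff p = 0.267 in the authors' deposited table). Cxcr4, which draws germinal centre cells toward the dark zone, had 69.2 FPKM in Etv5 cKO and 88.0 FPKM in WT cells (log2 fold change -0.35, Cuffdiff p = 0.0551 in the authors' deposited table). Cxcr3, a receptor of inflamed sites, had 56.1 FPKM in Etv5 cKO and 83.8 FPKM in WT cells (Cuffdiff p = 0.00110, adjusted p = 0.231 in the authors' deposited table). Ccr7, which holds cells in the T zone, had 26.2 FPKM in Etv5 cKO and 26.3 FPKM in WT cells. Of the 13 genes of germinal centre TFH cells, which share that site with S1pr2, 11 were lower and 2 higher, with a median of -0.14 and 0 called. Among them Sostdc1 stood at -0.66 on the log2 scale (Cuffdiff adjusted p = 0.181) and Il21 at -0.41 (adjusted p = 0.999) in the authors' deposited table. Bcl6, the transcription factor of the TFH fate, had 86.9 FPKM in Etv5 cKO and 95.9 FPKM in WT cells.

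**Figure D4:**
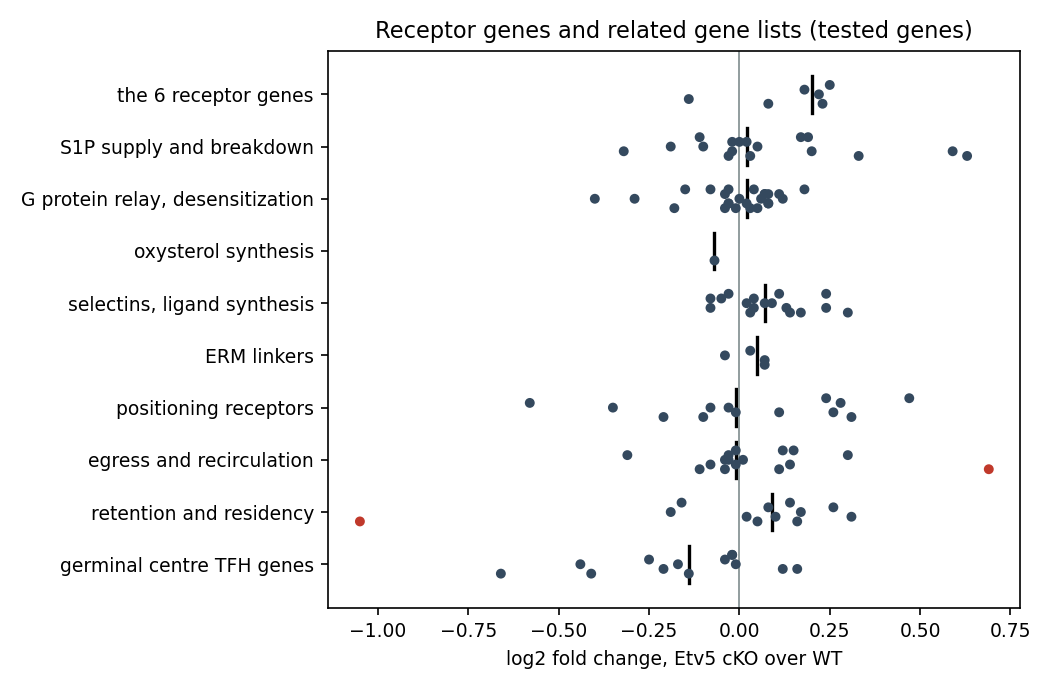
Log2 fold change, Etv5 cKO over WT (horizontal axis), of each tested gene in the 6 receptor genes and 9 related lists, with a black bar at each median; red marks genes called at an adjusted p below 0.05 in the authors' deposited table. The red points are Il7r (0.69) and Rgs16 (-1.05).

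Several receptor genes are also expressed by other blood cells, whose markers were not level between genotypes. All 9 tested myeloid markers were higher in Etv5 cKO cells, with a summed level of 159 FPKM in Etv5 cKO and 113 FPKM in WT cells. The 1 called was Lyz2 (16.4 FPKM in Etv5 cKO, 8.12 in WT, Cuffdiff adjusted p = 0.0434 in the authors' deposited table, and 0.0900 over every listed gene). Of 5 tested granulocyte markers 4 were higher (1 called), and the list summed to 18.7 FPKM in Etv5 cKO and 9.13 FPKM in WT cells. CD8 and NK markers were higher in 7 of 7 tested genes (0 called), summing to 40.0 FPKM in Etv5 cKO and 32.7 FPKM in WT cells, and 5 of the 7 tested red cell and platelet markers were called higher. B cell markers summed to 18.8 FPKM in Etv5 cKO and 19.5 FPKM in WT cells. Of the endothelial and stromal list, which summed to 51.0 FPKM in Etv5 cKO and 49.2 FPKM in WT cells, the 1 tested gene was Pecam1, which blood cells also express, at 50.5 FPKM in Etv5 cKO and 48.6 FPKM in WT cells (Cuffdiff p = 0.750 in the authors' deposited table). Lyve1 is listed at 0 in both genotypes, and Cdh5 had 0.0180 FPKM in Etv5 cKO and 0.0173 FPKM in WT cells. Among naive T cell markers, a list that holds S1pr1 itself, 4 of 6 were higher and 1 (Il7r) was called, while Lef1 had 73.2 FPKM in Etv5 cKO and 74.2 FPKM in WT cells. The part of these cells in the values of Selplg, S1pr4, Cd69 and Gpr183 was not tested.

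Likeness was measured as the Euclidean distance in log2 FPKM over the 2 genotype values, among 10427 tested protein coding genes. With 2 points per gene it reflects level and fold change only. Nearest to S1pr1 were Rcsd1 (distance 0.00874) and Elovl5, to S1pr2 Alg10b (0.0158) and Zfp664, and to Gpr183 Ndufc1 (0.0165) and Mrpl20. Nearest to S1pr4 were Tomm5 (0.0243) and P2ry10, to Selplg Lgals9 (0.0267) and Ndufa2, and to Cd69 Birc5 (0.0407) and Taf9.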

How the data were processed

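RNA of 4 libraries (2 Etv5 cKO, 2 WT) was sequenced after stranded poly(A) library preparation, per the labels' protocols. TopHat2 2.0.13, Cuffdiff 2.2.0 and mm10 are named in the submitters' processing notes. The sources used here name no annotation release and no normalization. The 2 libraries of each genotype form 1 Cuffdiff condition, per the file headers, and the authors' FPKM value, log2 fold change (Etv5 cKO over WT, no pseudocount), fold ratio, test score, p-value and adjusted p-value were deposited per gene. With no value per library, the authors' own test, which runs across all tested genes, was used. Calls mean an adjusted p below 0.05 in the deposited table.

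Implied 95% intervals are the log2 fold change ± a normal quantile times the SE that gives the deposited p. They were added after the values were seen. Helper functions were tested on simulated data. Members and the 10 gene and 8 marker lists were chosen with earlier results of these data known; 194 of 198 list symbols were found, 8 of them by RefSeq synonym. Named were the members, list genes with an unadjusted p below 0.05, the 3 of highest mean FPKM per list (not all are printed), sort markers and the 2 genes most like each member. Sphk1, Sphk2, Sgpl1, Mfsd2b, Gna13, Adrbk1, Ch25h, Cyp7b1, Fut7, Tpst2, Klf2, Foxo1, Rgs1, Ccr7, S1pr3, S1pr5, Ubac2, Gpr18 and the integrin genes were named after their values were seen. Start positions are 1-based (deposited start plus 1). Software was matplotlib 3.10.9, scipy 1.17.1, pandas 2.3.3 and Python 3.11.15. Alternatives were pseudocounts, scalings, filters, adjustments and a threshold of 0.1. Some listed genes are not reported here by name.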

Additional observations from a re-analysis of the deposited data

How the results depend on the processing

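All 6 receptor genes kept their direction with pseudocounts of 1 and 5, median centring and quantile normalization. Only quantile normalization could have changed a direction. A pseudocount added to both values cannot change a sign, and the centring shift, 0.00329 on the log2 scale, was smaller than each of the 6 differences. None was called with the p adjusted over every listed gene, over tested genes, over tested genes of at least 1 FPKM on average, or at a threshold of 0.1. That outcome was fixed in advance, because the lowest Cuffdiff p of the 6 was 0.168 and an adjusted p cannot fall below its p. Across the first 4 settings and the deposited value the log2 fold change ran from 0.23 to 0.25 for Selplg, 0.21 to 0.23 for Cd69, 0.20 to 0.22 for S1pr4, 0.16 to 0.18 for Gpr183, 0.06 to 0.08 for S1pr1 and -0.14 to -0.11 for S1pr2. Among the related genes Cers2 and Stk4 (-0.01 each with quantile normalization) and Oxsr1 (0.00 with either scaling) changed sign around 0. Called over the whole table were 40 genes as deposited, 32 over every listed gene, 38 with the filter of 1 FPKM and 41 at a threshold of 0.1. No paired analysis was possible because the table holds 1 value per genotype; for the same reason leaving out each replicate was not run. Depth is unknown, so precision can be read only from the authors' p and test score, which differ under normal error. For the 6 receptor genes the test score gives the wider intervals.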

Other observations

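Integrins that act with these receptors during homing were expressed at high levels in both genotypes. Itgal and Itgb2, the chains of LFA-1, had 344 and 247 FPKM in Etv5 cKO cells and 363 and 253 FPKM in WT cells. Itga4 had 122 FPKM in Etv5 cKO and 124 FPKM in WT cells, Itgb7 had 251 FPKM in Etv5 cKO and 227 FPKM in WT cells, and Itgb1 had 221 FPKM in Etv5 cKO and 240 FPKM in WT cells. None of these 5 genes was called in the authors' deposited table (Cuffdiff adjusted p = 0.999 each). Coro1a, an actin regulator needed for T cell exit, had the highest level of the egress list, at 1226 FPKM in Etv5 cKO and 1115 FPKM in WT cells.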
